A study of Mus musculus with 4 samples.

Results

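Among Gfra1+ spermatogonia of the adult mouse testis, 440 of 2192 cells carried the mRNA of Eomes above a fixed level, and these Eomes+ cells were set against the Gfra1+ cells of the same library in which no Eomes transcript was counted. Gfra1 encodes the receptor for GDNF, the niche factor that maintains spermatogonial stem cells (SSCs), and Eomes encodes a T-box transcription factor. Cells were chosen by their own counts. A cell was kept if over 1000 genes were detected and under 20% of its unique molecular identifiers (UMIs, 1 per captured transcript) were mitochondrial, which left 7493 of 9229 barcodes. The level of a gene in a cell, N, was the natural log of 1 plus its UMIs per 100000 UMIs of that cell. Gfra1+ cells had N above 2 for Gfra1, Eomes+ cells also had N above 2 for Eomes, 1509 cells were Eomes-negative, and the remaining 243 Gfra1+ cells held Eomes UMIs at or under the threshold. Since Eomes (chr9:118478212-118486132, plus strand, GRCm38) and Gfra1 (chr19:58235604-58455909, minus strand) selected the cells, their levels are a description only and neither was tested.

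The study compared undifferentiated spermatogonia (A_undiff) of untreated adult males (CTRL) with those of males given a single dose of 10 mg/kg busulfan, a DNA-alkylating drug that depletes spermatogonia, and collected at day 10 (BU), when the surviving cells are rebuilding the germline. All mice were C57BL/6J, 6–8 weeks old, and every library pooled the testis cells of 3 mice, sorted as E-cadherin+ CD49f+ c-KIT- before 10x Genomics capture. Each of 2 experiments held 1 CTRL and 1 BU library, and the labels give kit version 2 for experiment 1 and version 3.1 for experiment 2. Nothing separates single mice within a library, so n is 2 libraries per group, and CTRL 1 and BU 1 share an experiment as do CTRL 2 and BU 2.

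A_undiff comprise SSCs, which renew themselves, and progenitors, which are primed to differentiate. GFRα1 marks the fraction richest in SSCs, where GDNF signals through the RET receptor and, together with FGF, drives transcription factors such as ETV5, BCL6B, LHX1 and POU3F1. As cells leave this state they lose Gfra1, gain Neurog3, Sox3, Rarg and Upp1, and on retinoic acid exposure switch on Stra8 and Kit. T-box factors such as EOMES and brachyury act early in mesoderm formation in the embryo, and EOMES is also known from cytotoxic lymphocytes, so markers of those cells are given with the other cell types.

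CTRL 1 held 109 Eomes+ cells among 585 Gfra1+ cells, CTRL 2 held 25 among 214, BU 1 held 209 among 865 and BU 2 held 97 among 528. Median UMIs per Eomes+ cell were 7019, 23970, 10620 and 40800 in that order, against 7298, 26100, 10070 and 30510 per Eomes-negative cell. In BU 2 the Eomes+ cells were thus deeper than the Eomes-negative cells, and in the other 3 libraries the medians lay close together. Most Eomes+ calls of experiment 1 rested on 1 UMI, with 88 of 109 cells in CTRL 1 and 142 of 209 in BU 1, against 2 of 25 in CTRL 2 and 2 of 97 in BU 2. A single Eomes UMI put a cell over the threshold only below 15651 UMIs per cell, and 2 UMIs only below 31303. The cell just inside had N of 2.005 from 1 UMI in 15557, and the cell just outside had N of 1.999 from 6 UMIs in 94044. The highest count per cell was 4 Eomes UMIs in CTRL 1, 6 in both CTRL 2 and BU 1, and 17 in BU 2. Gfra1 itself was at 183, 175, 190.4 and 156 CPM (UMIs scaled to a common library size by TMM over the sums) in the Eomes+ cells of CTRL 1, CTRL 2, BU 1 and BU 2, and at 169, 132, 181 and 141 in the Eomes-negative cells.

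CTRL 2 and BU 2 shared 677 cell barcodes, of which 70 belonged to cells passing the filter in both, while CTRL 1 and BU 1 shared 11 and CTRL 2 and BU 1 shared 1. A barcode also found in another library was carried by 54 of the 97 Eomes+ cells of BU 2, by 5 of 25 in CTRL 2, 2 of 109 in CTRL 1 and 1 of 209 in BU 1, and no barcode was Eomes+ in both of its libraries. Among Eomes-negative cells it was carried by 81 of 244 in BU 2, 24 of 151 in CTRL 2, 3 of 640 in BU 1 and 0 of 474 in CTRL 1. The summed UMIs of Eomes+ cells were 880671, 699100, 2225809 and 4858407 in CTRL 1, CTRL 2, BU 1 and BU 2, and those of Eomes-negative cells 3857104, 4552832, 6794163 and 8496797, out of library totals of 26802228, 39904588, 21136369 and 53579969. The median mitochondrial share was 6.70%, 4.98%, 6.60% and 6.16% in Eomes+ cells and 6.83%, 5.35%, 6.47% and 5.77% in Eomes-negative cells. The main counts of genes were also taken without those cells.

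The Eomes-negative cells also held other cell types. At least 0.2% of UMIs came from the somatic marker lists in 32 Eomes-negative cells of BU 2 and in 7, 10 and 9 of CTRL 1, CTRL 2 and BU 1, and 4 further Eomes-negative cells, 1 per library, were spermatids (at least 5% of UMIs from Prm1, Prm2, Tnp1 and Tnp2). No Eomes+ cell met either criterion. Each comparison was run on all cells and again with these cells left out, and changes of call between the fits are given with the gene lists.

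The share of Gfra1+ cells that were Eomes+ was 18.6% in CTRL 1 (exact binomial 95% interval 15.6 to 22.03) and 11.7% in CTRL 2 (7.71 to 16.8). For BU 1 it was 24.2% (21.3 to 27.2), and BU 2 had 18.4% (15.2 to 21.9). These intervals cover counting error only. The lowest BU share, 18.4%, lay under the CTRL 1 share, so the groups overlapped, although BU was higher within each experiment, by 5.53 percentage points in experiment 1 and 6.69 in experiment 2. The means were 15.2% ± 4.92 for CTRL and 21.3% ± 4.10 for BU (SD, n = 2 libraries), a difference of 6.11 points with p = 0.667 in a two-sided exact permutation test, which cannot fall below 0.333 with 2 against 2 libraries. With somatic cells and spermatids left out, the shares were 18.9% and 12.3% in the CTRL libraries and 24.4% and 19.6% in the BU libraries, which did not overlap, with p = 0.333 in the same exact test, the smallest it can give. Counting any Eomes UMI gave 19.0%, 29.4%, 26.0% and 53.8% in CTRL 1, CTRL 2, BU 1 and BU 2, in the same order as the median depth of the libraries. After every cell was thinned to 5000 UMIs, leaving out shallower cells, the shares were 16.2%, 7.52%, 16.5% and 13.7%, and the difference between BU and CTRL was 0.379 points in experiment 1 and 6.21 in experiment 2. Detection of Eomes thus depended on depth, at 53.8% of BU 2 cells before thinning and 13.7% after it. An Eomes-negative cell is one with no Eomes UMI counted, and may still hold the mRNA.

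**Figure D1:**
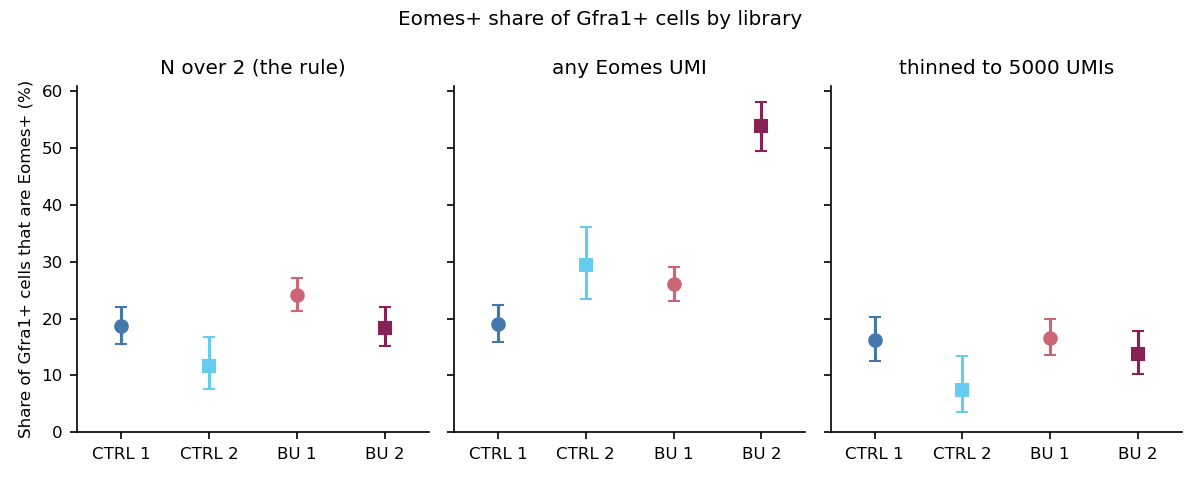
Share of Gfra1+ cells that were Eomes+ in each library (y axis, percent), by the rule, by any Eomes UMI and after thinning each cell to 5000 UMIs; points are libraries and bars are exact binomial 95% intervals. The any-UMI share of BU 2, 53.8%, stands above all other values, and after thinning the 4 shares lie between 7.52% and 16.5%.

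Spermatids, which should lack the gene, gave the background. An Eomes UMI was found in 3 of the 59 spermatids of BU 2 and in none of the 34, 94 and 7 spermatids of CTRL 1, CTRL 2 and BU 1, and none passed the threshold. The spermatids had a median of 31860 UMIs in BU 2, and of 11470, 24470 and 14750 in the others. Counts of 0 allow a share of up to 8.82%, 3.19% and 42.9% in CTRL 1, CTRL 2 and BU 1. The Gfra1+ cells had median depths of 7258, 26790, 10240 and 38420 UMIs in CTRL 1, CTRL 2, BU 1 and BU 2, and their any-UMI shares stood above these limits in CTRL 1 and CTRL 2 and above the 3 of 59 spermatids of BU 2, while the 7 spermatids of BU 1 are too few to bound its share.

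Eomes+ and Eomes-negative cells were compared within libraries on UMIs summed per library and Eomes status (8 sums), with library as a block, so that the adjusted p-values measure the spread of these sums over 4 libraries and not over cells or mice. Of 11895 genes tested, 353 were higher (2.97%) and 364 lower (3.06%) in Eomes+ cells at a Benjamini-Hochberg adjusted p under 0.05 in edgeR's quasi-likelihood test, and 660 of these 717 differed in the same direction in all 4 libraries. With somatic cells and spermatids left out, 337 genes were higher (2.88%) and 217 lower (1.86%) of 11693. The shares of each fit are the reference for the counts of the gene lists below. Those lists were chosen with earlier results of these data known, so their counts are a description and no independent evidence. A total of 441 calls were shared by both fits (291 higher, 150 lower), which is 61.5% of the calls over all cells and 79.6% of those with other cell types left out. BU 2 weighed heavily: without it 144 genes were higher and 156 lower over all cells, without BU 1 the counts were 193 and 259, and without any cell whose barcode occurs in another library they were 199 and 208. With other cell types left out of Eomes+ against Eomes-negative Gfra1+ cells, genes called numbered 154 and 75 without BU 1, 173 and 113 without BU 2, and 133 lower without CTRL 1.

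**Figure D2:**
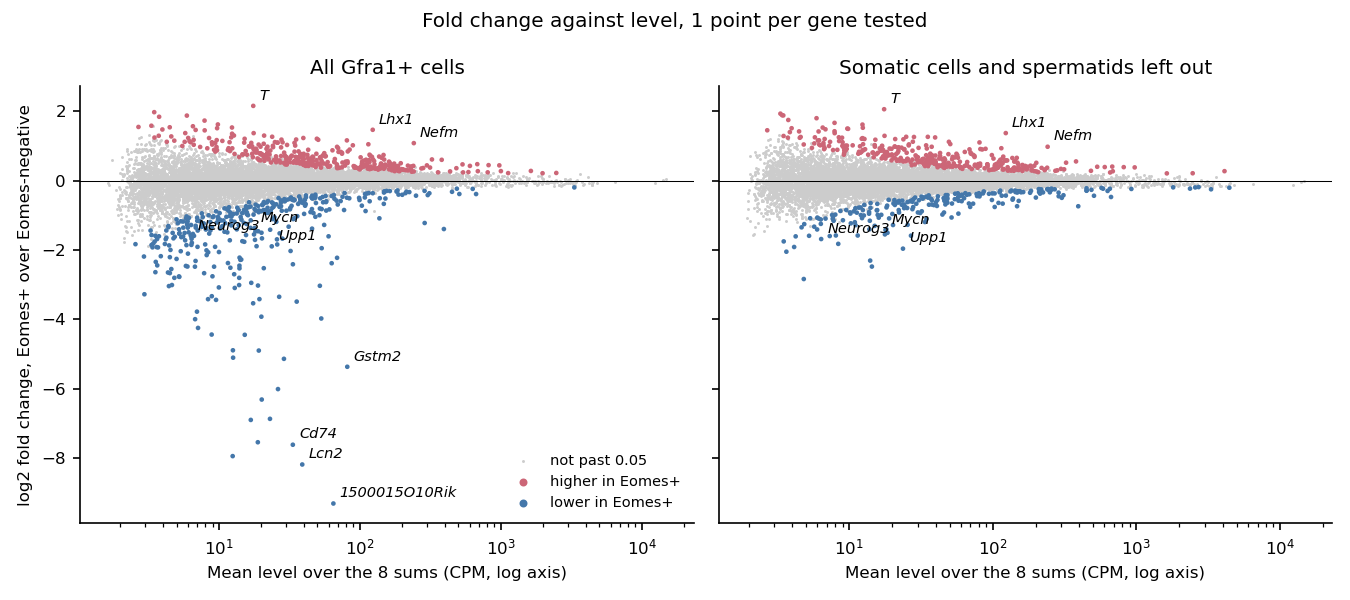
Log2 fold change of Eomes+ over Eomes-negative Gfra1+ cells (y axis) against mean level over the 8 sums (x axis, CPM, log axis), 1 point per tested gene, for all cells (left) and with somatic cells and spermatids left out (right); red and blue points passed an adjusted p of 0.05. Falls beyond 4 log2 units, such as 1500015O10Rik, Lcn2 and Cd74, are present on the left and absent on the right, while T, Lhx1, Nefm, Upp1, Neurog3 and Mycn lie past the threshold in both.

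Of 17 SSC transcription factors tested, 10 rose in Eomes+ cells (Lhx1, T, Lhx2, Id4, Etv5, Bcl6b, Egr2, Egr3, Pou3f1 and Dmrt3), where 2.97% of all genes did, and 0 fell, with a median log2 difference of 0.67 against 0.01 over all genes tested. The same count of 10 of 17, with a median of 0.63, was obtained with other cell types left out, against 4 of 15 tested in experiment 1 alone and 5 of 17 in experiment 2 alone. The 10 genes higher in each of the 4 libraries were the 9 rising genes other than Egr3, together with Foxc2. Egr3 had no UMI in experiment 1, so that its rise rests on experiment 2. Pdx1, Foxc2, Pax7, Nanos2, Bmi1, Foxo1 and Sall1 did not pass the test, with Nanos2, an RNA-binding factor of the most primitive cells, at a log2 difference of -0.22.

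Lhx1 (chr11:84518284-84525535, minus strand), a LIM homeobox factor induced by GDNF, was at 74.4, 202, 184 and 265 CPM in the Eomes+ cells of CTRL 1, CTRL 2, BU 1 and BU 2, against 29.1, 36.5, 101 and 95.2 in the Eomes-negative cells. It was higher in Eomes+ cells of every library, though the Eomes+ cells of CTRL 1 lay below the Eomes-negative cells of both BU libraries. The log2 difference was 1.46 ± 0.16 (SE, n = 4 libraries, edgeR adjusted p = 1.31e-05). T (chr17:8434423-8442496, plus strand), encoding the T-box factor brachyury, was at 25.9, 42.4, 19.0 and 26.2 CPM in Eomes+ cells and at 10.4, 4.46, 8.58 and 3.06 in Eomes-negative cells. The Eomes+ and Eomes-negative values did not overlap for T, which had the largest log2 rise of the genes named by size, at 2.15 ± 0.30 (edgeR adjusted p = 0.000153). Id4, an inhibitor of DNA binding expressed by SSCs, was at 96.9, 189, 98.4 and 121 CPM in Eomes+ cells and at 69.4, 79.2, 62.3 and 93.0 in Eomes-negative cells. These values did not overlap either, and the log2 difference was 0.67 ± 0.12 (edgeR adjusted p = 0.00156).

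**Figure D3:**
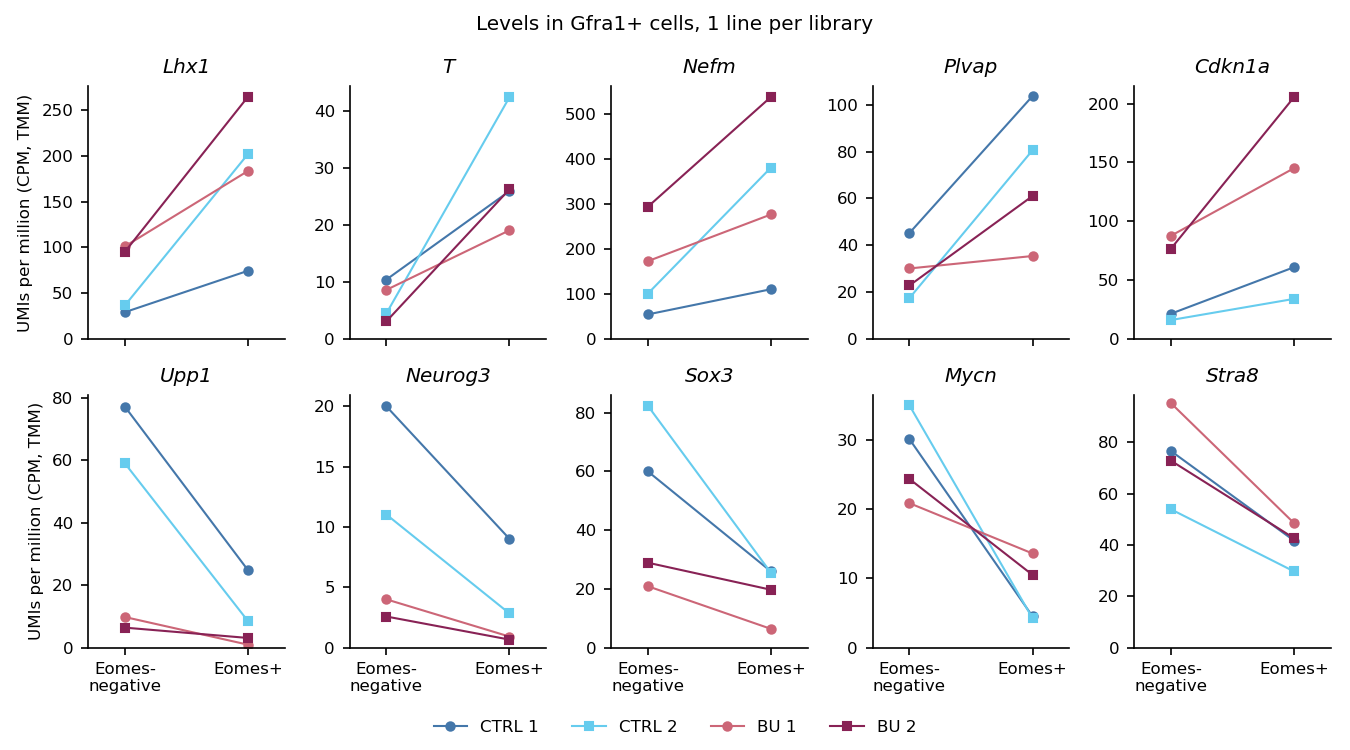
Levels (y axis, CPM scaled by TMM) of 5 genes that rose and 5 that fell in Eomes+ cells, with 1 line per library joining the Eomes-negative to the Eomes+ sum; circles are experiment 1 and squares experiment 2. All lines run in the direction of the fitted difference, while libraries differ in level, as for Upp1 and Neurog3, which stand lower in both BU libraries.

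Of 20 tested genes of GDNF signalling and response other than Gfra1, 13 rose, against 2.97% of all genes, and 2 fell, with a median log2 difference of 0.57, and 7 of the 13 are also among the SSC transcription factors counted above. Of the feedback genes that MAPK signalling switches on, the phosphatase gene Dusp4 was at 22.5, 31.1, 27.7 and 54.2 CPM in Eomes+ cells of CTRL 1, CTRL 2, BU 1 and BU 2, against 9.87, 9.55, 16.9 and 19.0 in Eomes-negative cells. The 4 Eomes+ values lay above the 4 Eomes-negative ones, with a log2 difference of 1.26 ± 0.17 (edgeR adjusted p = 0.000147). Dusp6 (log2 difference 0.65), Spry4 (0.46) and Spred1 (0.41), all inhibitors in that pathway, Fos (0.60) and Ccnd2 (0.44), the D-type cyclin of spermatogonia, rose too. Ret, the signalling partner of GFRα1, was at 78.9, 105, 69.4 and 58.8 CPM against 74.8, 61.3, 50.5 and 49.2, higher in Eomes+ cells of each library, and its log2 difference of 0.38 had an edgeR adjusted p of 0.0562. Mycn, a growth-promoting MYC factor, went the other way at 4.51, 4.24, 13.6 and 10.5 CPM against 30.1, 35.0, 20.9 and 24.4. Its values did not overlap, and it fell by 1.37 on the log2 scale (SE 0.24, edgeR adjusted p = 0.00159). Ncam1 fell by 0.85 over all cells but stood at 0.07 with an edgeR adjusted p of 0.906 once other cell types were left out, and in that fit 13 genes rose and 1 fell, Spry1 passing in place of Spry4. Without cells whose barcode occurs in another library, and with other cell types left out, 11 of the 20 rose and 1 fell. With other cell types left out, 5 of 19 tested rose in experiment 1 alone, 5 of 20 in experiment 2 alone and 10 of 20 with DESeq2.

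Of 10 genes for FGF receptors and feedback, 3 rose (Etv5, Dusp6 and Spry4), against 2.97% of all genes, and 0 fell, with a median of 0.38. Without other cell types 3 rose, with Spry1 passing in place of Spry4, but 1 in experiment 1 alone and 0 in experiment 2 alone. Fgfr1, a receptor, was at a log2 difference of 0.10 over all cells with an edgeR adjusted p of 0.831. In the T-box family, 4 of the 17 listed genes passed the filter on low counts. T and Tbx3 rose, the latter by 0.87 (edgeR adjusted p = 0.0104), and Mga, a MAX partner with a T-box, was at 0.02. Tbx1 fell over all cells, with 153 UMIs in Eomes-negative cells of which 41 remained once other cell types were left out, and was then too low to test. Tbx21, the T-box factor that accompanies EOMES in lymphocytes, had 0 UMIs in both sets of cells.

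Genes downstream of EOMES in the embryo did not move together. Of 14 listed, 6 could be tested, Lhx1 rose, and Fgf8, Mesp1, Mesp2, Foxa2 and Snai1 had log2 differences between -0.38 and 0.36 with edgeR adjusted p-values above the threshold. The Nodal, activin and BMP pathway acts upstream of EOMES in the embryo. Of its 16 tested genes 2 rose (Id4 and the inhibitory Smad7) and 2 fell (Id1 and Id2), against 2.97% and 3.06% of all genes. The median was 0.01. With other cell types left out only Id4 passed, and Id2, with 12 of its 142 Eomes-negative UMIs left, was too low to test. Nodal had 4 UMIs in Eomes+ cells and 2 in Eomes-negative cells, and Tdgf1 and Foxh1 had 0 in both.

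Other genes associated with SSCs gave 6 rises and 2 falls among 15, against 2.97% and 3.06% of all genes, with a median log2 difference of 0.36. Without other cell types 6 of 14 rose, and 2 of 14 and 3 of 13 in experiments 1 and 2 alone. Nefm (chr14:68082590-68124846, minus strand), a neurofilament subunit, was at 110.4, 382, 277 and 539 CPM in Eomes+ cells of CTRL 1, CTRL 2, BU 1 and BU 2, and at 54.3, 101, 173 and 294 in Eomes-negative cells. It was higher in Eomes+ cells of each library, the groups overlapping across libraries, with a log2 difference of 1.08 ± 0.13 (edgeR adjusted p = 6.19e-05). Plvap, the protein of endothelial fenestral diaphragms that also marks SSCs, was at 104, 80.6, 35.4 and 61.0 CPM against 45.2, 17.4, 30.04 and 22.8. Its difference was smallest in BU 1, and the log2 value was 1.203 ± 0.19 (edgeR adjusted p = 0.000615). Mcam, an adhesion molecule, was at 133, 202, 173 and 228 CPM against 107, 102, 111 and 121, without overlap (log2 difference 0.74, edgeR adjusted p = 0.00011). Epcam (0.36), Tcl1, a coactivator of AKT (0.54), and Shisa6 (1.24) rose as well. Rhox10, a homeobox gene of young spermatogonia, fell by 0.79 (edgeR adjusted p = 0.0029), and was lower in Eomes+ cells of all 4 libraries. Aldh1a1, the other fall, had 1099 UMIs in Eomes-negative cells over all and 33 once somatic cells and spermatids were left out.

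By size alone, the 12 largest rises that passed the test, shared their sign in 4 libraries and averaged at least 10 CPM were T, Lhx1, Hs3st3b1, Plaur, F2rl1, Cd109, Dusp4, Cnr1, Rab4a, Plvap, Trib1 and Rhbdl3, with log2 differences from 1.18 to 2.15. Hs3st3b1 encodes an enzyme that sulfates heparan chains, which bind growth factors, and was at 13.5, 24.0, 22.2 and 42.4 CPM in Eomes+ cells against 4.16, 8.06, 11.8 and 14.7. Apart from CTRL 1 (13.5) against BU 2 (14.7) its values did not overlap, and the log2 difference was 1.37 ± 0.19 (edgeR adjusted p = 0.00015). Several of these genes encode surface proteins, namely the urokinase receptor (Plaur), a protease-activated receptor (F2rl1), a TGF-β co-receptor (Cd109) and a cannabinoid receptor (Cnr1). Plaur was at 1.13, 9.89, 33.6 and 27.3 CPM against 1.04, 0.849, 11.3 and 14.1, so that the Eomes+ and Eomes-negative levels of CTRL 1 were nearly equal. Rab4a, a GTPase of recycling endosomes, was at 75.5, 60.8, 47.6 and 43.7 CPM against 26.2, 15.7, 25.3 and 22.7. Its values did not overlap, nor did those of Trib1, a pseudokinase, at 42.8, 42.4, 55.8 and 55.1 against 16.9, 16.3, 31.4 and 21.7 (log2 difference 1.18 ± 0.14, edgeR adjusted p = 2.53e-05). With other cell types left out, Lbh and Zmiz1, both transcriptional cofactors, took the places of Plvap and Rhbdl3 in the same list, at 1.26 and 1.25.

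Of 14 progenitor genes tested, 6 fell in Eomes+ cells (Neurog3, Rarg, Sox3, Upp1, Nanos3 and Sohlh1), against 3.06% of all genes, and 1 rose (Ccnd2), with a median log2 difference of -0.48, and 7 were lower in all 4 libraries. With other cell types left out the count was again 6 of 14, with 4 in each experiment alone and 8 without the cells whose barcode occurs elsewhere. Upp1 (chr11:9118103-9136170, plus strand), uridine phosphorylase, was at 24.8, 8.48, 0.907 and 3.06 CPM in Eomes+ cells of CTRL 1, CTRL 2, BU 1 and BU 2, against 77.2, 59.0, 9.77 and 6.37 in Eomes-negative cells. It was lower in Eomes+ cells of each library and fell by 1.90 on the log2 scale (SE 0.25, edgeR adjusted p = 9.45e-05), although the Eomes+ cells of CTRL 1 lay above the Eomes-negative cells of both BU libraries. Neurog3, the bHLH factor of cells set to differentiate, was at 9.02, 2.83, 0.907 and 0.656 CPM against 20, 11.03, 3.995 and 2.57, from 15 UMIs in all Eomes+ cells and 177 in Eomes-negative cells. It was lower in Eomes+ cells of each library, by 1.62 (edgeR adjusted p = 0.00885). Sox3, an SRY-related factor of progenitors, was at 25.9, 25.4, 6.35 and 19.7 CPM against 60.0, 82.3, 20.9 and 28.9, and fell by 1.11 (edgeR adjusted p = 0.000615). Rarg, the retinoic acid receptor of progenitors, fell by 1.05, Nanos3 by 0.91 and Sohlh1 by 0.67. Ddit4, Pou5f1, Piwil4, Sohlh2, Lin28a, Dusp2 and Sall1 did not pass, at log2 differences between -0.56 and 0.03.

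Of 12 genes marking entry into differentiation, Sohlh1 and Stra8 fell and Ccnd2 rose over all cells, against 3.06% and 2.97% of all genes. The median was -0.26. Stra8, the retinoic acid target that opens differentiation, was at 41.7, 29.7, 48.5 and 42.6 CPM in Eomes+ cells and at 76.6, 53.9, 95.3 and 72.9 in Eomes-negative cells. The values did not overlap and Stra8 fell by 0.87 (SE 0.11, edgeR adjusted p = 6.36e-05). With other cell types left out Sycp3, Crabp1 and Esx1 also fell, by 0.31, 0.37 and 0.98, where 1.86% of all genes fell. The 5 falls of that fit became 2 with DESeq2, 2 in experiment 1 alone and 2 in experiment 2 alone. Kit, whose protein the sort selected against, was at 1.13, 2.83, 5.44 and 21.7 CPM against 1.04, 5.31, 6.66 and 9.92, with no common direction and an edgeR adjusted p of 0.393. Among 14 pan-undifferentiated genes, which serve as a check that both sets are A_undiff, 1 rose (Glis3) and 1 fell (Uchl1) over all cells, with a median of 0.02, Glis3 not passing with other cell types left out (edgeR adjusted p = 0.0644), and the summed level of the list was 3491, 2985, 3342 and 3037 CPM in Eomes+ cells against 3691, 3136, 3504 and 2717 in Eomes-negative cells.

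Over all cells the 12 largest falls were 1500015O10Rik, Lcn2, Rarres2, Cd74, C3, Bcam, Cpe, Aldh1a1, Ifitm3, Gstm2, Kctd14 and Rspo1, several of them genes of somatic testis cells. The Eomes-negative level of 1500015O10Rik was 6.49, 232, 9.18 and 271 CPM in CTRL 1, CTRL 2, BU 1 and BU 2. It had 2 UMIs in all Eomes+ cells and 3391 in Eomes-negative cells, of which 13 were left after somatic cells and spermatids were removed. Of these 12 genes only Gstm2 could be tested without those cells, at a log2 difference of -0.38 (edgeR adjusted p = 0.642). Sums cannot tell a few somatic cells from a low level in many cells, and here nearly all UMIs of these genes left with the 58 somatic cells and 4 spermatids.

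With those cells left out, the 12 largest falls were Upp1, Asb9, H2-Q2, Igfbp6, Oasl2, Mycn, Gm13075, Sgk1, Gm43409, Ndrg4, Cabs1 and Dlk1, from 1.28 to 1.96 on the log2 scale. Asb9, a substrate adaptor of ubiquitin ligases, was at 22.5, 15.6, 8.16 and 11.8 CPM in Eomes+ cells against 57.4, 35.2, 31.4 and 33.4 over all Eomes-negative cells. No value of one set reached the other, and the fall over all cells was 1.52 (SE 0.16, edgeR adjusted p = 8.33e-06). Igfbp6, which binds insulin-like growth factors, was at 19.2, 8.48, 4.08 and 4.15 CPM against 47.0, 34.8, 11.7 and 12.5, lower in Eomes+ cells of each library. Oasl2, an interferon-induced gene, was at 21.4, 5.65, 3.63 and 3.06 CPM against 41.8, 44.6, 9.32 and 18.4. Sgk1, a kinase downstream of PI3K, was at 13.5, 8.48, 11.3 and 5.90 CPM against 35.9, 27.4, 18.5 and 24.1, without overlap. Dlk1, a membrane-bound Notch ligand homologue, was at 20.3, 5.65, 15.4 and 16.2 CPM against 48.6, 36.1, 26.3 and 35.6, also without overlap. H2-Q2 belongs to a family of near-identical class I genes, so its reads may be split among copies and its value is uncertain.

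Some cell cycle genes were higher in Eomes+ cells, by small amounts. Of 20 mitosis genes, 6 rose over all cells (Mki67, Top2a, Aspm, Ube2c, Ccnb2 and Kif20b), where 2.97% of all genes did, and 3 with other cell types left out, with medians of 0.30 and 0.20 and 19 of 20 above 0 in the second fit, and in that fit 0 passed without cells whose barcode occurs elsewhere or in either experiment alone, and 1 with DESeq2. Mki67, a marker of proliferation, was at 39.4, 232, 180.4 and 262 CPM in Eomes+ cells against 30.1, 142, 158 and 186, with a log2 difference of 0.44 (edgeR adjusted p = 0.00614). After thinning to 5000 UMIs, Mki67 was found in 8.16%, 40%, 43.96% and 41.2% of Eomes+ cells and in 13.8%, 22.2%, 40.7% and 41.8% of Eomes-negative cells without somatic cells and spermatids, with no common direction. Of 20 S-phase genes 2 rose over all cells (Mcm3 and Mcm5), against 2.97% of all genes, with a median of 0.25. Only Mcm5 rose with other cell types left out, with a median of 0.15 and 17 of 20 above 0, and 0 rose when shared barcodes were also left out, with DESeq2, or in either experiment alone. Among 12 G1 cyclins and kinase inhibitors 3 rose (Ccnd1, Ccnd2 and Cdkn1a) and 2 fell (Cdk6 and Cdkn1c), against 2.97% and 3.06% of all genes. Of these, Cdk6 did not pass with other cell types left out (edgeR adjusted p = 0.057).

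Cdkn1a (chr17:29090976-29100727, plus strand), the p21 inhibitor of cyclin-dependent kinases and a p53 target, was at 60.9, 33.9, 145 and 206 CPM in Eomes+ cells of CTRL 1, CTRL 2, BU 1 and BU 2, against 21.3, 15.9, 87.6 and 76.7 in Eomes-negative cells. It was higher in Eomes+ cells within each library and higher in BU than in CTRL within each status, with a log2 difference by Eomes status of 1.16 ± 0.13 (edgeR adjusted p = 1.32e-05). Of 11 p53 targets Cdkn1a and Pmaip1, a pro-apoptotic factor, rose, against 2.97% of all genes, and Mdm2, Bax and Ccng1 did not pass, with a median of 0.25. Cdkn1c, another kinase inhibitor, fell by 0.59 and was lower in Eomes+ cells of each library.

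The genes listed as raised after busulfan were chosen by the study on these libraries and are no independent evidence. Of 15, Epcam, Plaur, Mpzl2, S100a6 and Mt1 were higher in Eomes+ cells and Anxa2 was lower, against 2.97% and 3.06% of all genes. The median was 0.21. With other cell types left out S100a11 passed at 0.73 in place of Mt1, and Anxa2 was at -0.17. The 5 rises of that fit became 2 with DESeq2, 4 in experiment 1 alone and 1 in experiment 2 alone. Of 13 immediate early genes, Fos and Egr1 rose and Jund fell over all cells (2.97% and 3.06% of all genes), with a median of 0.10. Jun and Junb rose too once other types were left out, and these 4 rises became 2 with DESeq2, 0 in experiment 1 alone and 1 in experiment 2 alone. For the mTORC1 and PI3K pathway, which couples growth factors to translation, 0 of 16 rose and Eif4ebp1, the translation repressor 4E-BP1, fell by 0.52 (edgeR adjusted p = 0.00097), as did Akt1 by 0.58, the latter over all cells only, with a median of 0.02. Of 11 genes for adhesion and migration, Mcam, Epcam and Plaur rose and Ncam1 and Cldn3 fell, against 2.97% and 3.06% of all genes. The median was 0.04.

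Markers of other cell types were counted in the same fits. Over all cells 2.97% of all genes rose and 3.06% fell, and with other cell types left out 2.88% and 1.86% did. The somatic lists also chose the cells left out, none of them Eomes+, so the counts of these lists in the second fit are a description only. Of 8 Sertoli genes 6 were lower in Eomes+ cells over all cells, with a median of -1.97, and 0 of 6 with those cells left out. The list summed to 94.7, 59.4, 48.5 and 53.1 CPM in Eomes+ cells and to 138, 301, 93.5 and 396 in all Eomes-negative cells, its most abundant gene being Clu, and the Sertoli markers Fshr and Gdnf had 0 UMIs in Eomes+ cells. Of 1 Leydig gene tested, Fabp3 was lower over all cells only, and Cyp17a1, Cyp11a1 and Insl3 had 0 UMIs in Eomes+ cells. Neither of 2 peritubular genes tested passed. Of 3 macrophage genes Mrc1 rose by 1.56 and Cd74 fell, the list summing to 22.5, 45.2, 56.2 and 37.0 CPM against 23.1, 141, 41.0 and 189 over all Eomes-negative cells and 19.3, 6.92, 31.2 and 26.9 without the removed ones, so that Eomes+ cells were lower in 3 libraries by the first and higher in 4 by the second, with Lyz2, C1qc and Adgre1 at 0 UMIs in Eomes+ cells. Of 3 endothelial genes, Flt1 rose by 1.02 and Kdr joined it at 1.52 with other cell types left out, while Esam had 1 UMI and Emcn 2 in Eomes+ cells. In that fit 0 of 3 endothelial and 0 of 2 macrophage genes passed with DESeq2 or in experiment 1 alone. For NK and T lymphocytes, 8 of 15 markers, among them Nkg7, Gzmb, Ncr1 and Klrd1, had 0 UMIs in Eomes+ cells. Only Cd3e was abundant enough to test there, at a log2 difference of 0.31 with 42 UMIs, and the list summed to 5.63, 21.2, 6.80 and 7.22 CPM in Eomes+ cells against 4.68, 4.46, 4.74 and 8.57.

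Of 12 spermatid genes 8 fell over all cells, against 3.06% of all genes, and 7 of 11 with somatic cells and spermatids left out, against 1.86%. The medians were -1.16 and -0.57, and in the second fit 1 of 12 fell in experiment 1 alone and 4 of 11 in experiment 2 alone. The summed level was 1087, 427, 428 and 538 CPM in Eomes+ cells, 1590, 3733, 783 and 917 in all Eomes-negative cells, and 1339, 689, 611 and 856 in Eomes-negative cells without the removed ones. Prm2, a protamine, was the most abundant of the list. Taking each cell by itself, a share of UMIs was taken from Prm1, Prm2, Tnp1 and Tnp2 alone, the genes that also marked the spermatids left out. The median of that share was 0.0185%, 0.0330%, 0.00901% and 0.0303% in Eomes+ cells against 0.0153%, 0.0354%, 0.00989% and 0.0321% in all Eomes-negative cells, without a common direction. The part of spermatid transcripts from outside the cells in these sums was not tested. Of 10 genes of spermatocytes and late germ cells only Crisp2 fell, with a median of -0.05, and 0 of 13 mitochondrially encoded genes passed, with a median of -0.03. When cells with a shared barcode were left out as well as other cell types, the higher count went from 2 to 1 in the T-box and endothelial lists, and the lower count from 1 to 2 in the G1, mTORC1 and PI3K, pan-undifferentiated and spermatocyte lists and from 1 to 0 in the immediate early and adhesion lists.

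**Figure D4:**
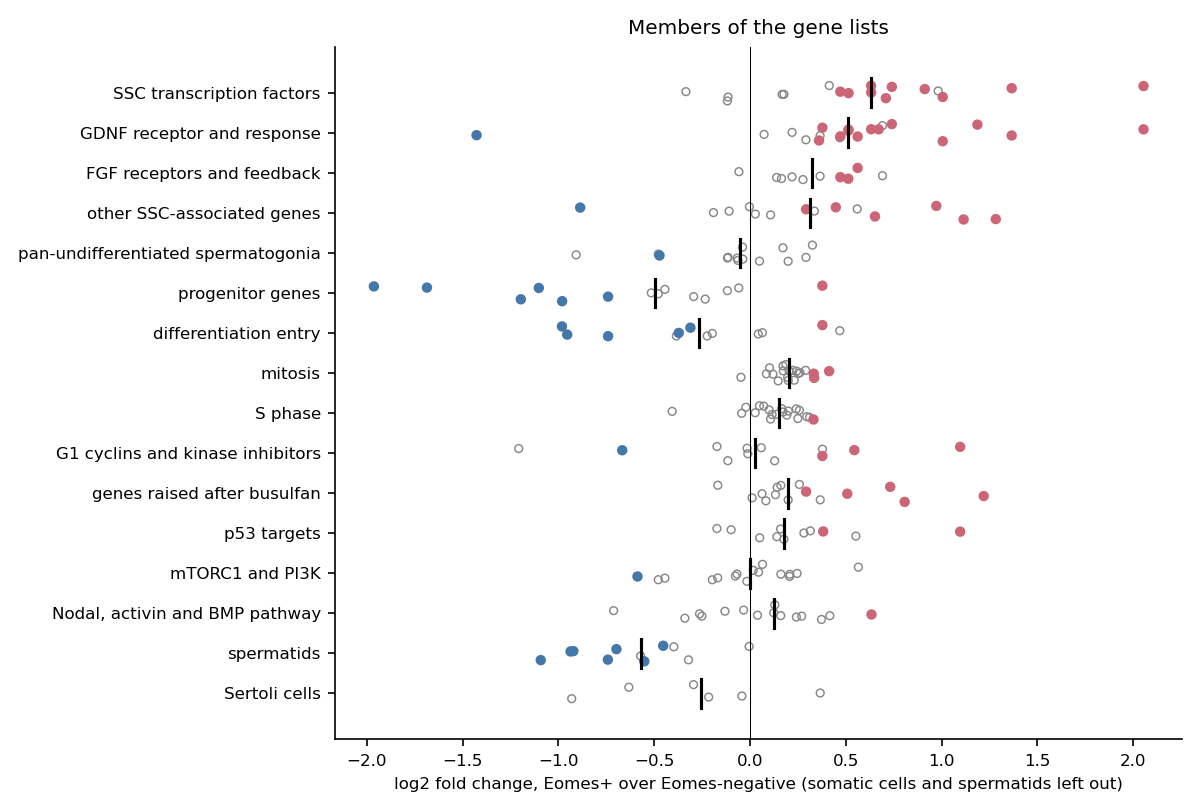
Log2 fold change of Eomes+ over Eomes-negative cells (x axis, somatic cells and spermatids left out) for the tested members of 16 gene lists, 1 point per gene; filled points passed an adjusted p of 0.05, open points did not, and black bars are list medians. The SSC transcription factor and GDNF medians lie at 0.63 and 0.51, the progenitor and spermatid medians at -0.50 and -0.57, and lists share some genes.

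The share of cells with a transcript was taken for single genes, with somatic cells and spermatids left out of the Eomes-negative cells. After thinning to 5000 UMIs, Lhx1 was found in 33.7%, 36%, 55.1% and 69.1% of Eomes+ cells of CTRL 1, CTRL 2, BU 1 and BU 2, against 11.8%, 15.6%, 31.9% and 30.8% of Eomes-negative cells and 3.23%, 1.25%, 0% and 7.55% of spermatids. Without thinning the shares were 38.5%, 84.0%, 74.6% and 96.9% in Eomes+ cells and 15.9%, 32.9%, 45.9% and 64.0% in Eomes-negative cells, and 5.88%, 14.9%, 28.6% and 40.7% in spermatids. Lhx1 was thus more often detected in Eomes+ cells of each library at equal depth, as was Nefm, at 36.7%, 52.0%, 59.4% and 79.4% against 18.8%, 28.1%, 44.1% and 60.6%, with thinned spermatids at 3.23%, 2.50%, 14.3% and 3.77%. T was found in 9.18%, 16%, 9.66% and 17.5% of thinned Eomes+ cells against 4.11%, 2.96%, 4.19% and 1.92%, and in no thinned spermatid. Upp1 was found in 10.2%, 0%, 0.483% and 3.09% of thinned Eomes+ cells against 22.7%, 27.4%, 4.99% and 2.89%, with spermatids at 3.23% in CTRL 1 and 0% in the others. The shares of BU 2 were near equal and rested on few cells, 3 of 97 Eomes+ and 6 of 208 Eomes-negative.

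The 243 Gfra1+ cells with Eomes UMIs at or under the threshold belonged to neither set and were not tested. Their CPM were scaled to their total UMIs without TMM, unlike those of the outer sets. Small gaps between these levels are therefore uncertain, and the part of the scaling in their order was not tested. They were mostly deep cells, 187 of them in BU 2, at a median of 47260 UMIs, and 38 in CTRL 2, at 35720, against 16 in BU 1 and 2 in CTRL 1. For the 337 genes called higher with other cell types left out, the level of these cells lay between those of the Eomes-negative and the Eomes+ sets for 239 of the 335 that went the called way in CTRL 2 (71.3%) and for 276 of 336 in BU 2 (82.1%). For the 217 called lower it did so for 166 of 214 (77.6%) and 167 of 216 (77.3%). Lhx1 was at 91.4 CPM in these cells of CTRL 2, between 38.2 and 202 in the Eomes-negative and Eomes+ cells, and at 144 in BU 2, between 104 and 265. Nefm was at 287 and 408 CPM, and T at 6.67 and 9.73. Cdkn1a was at 16.01 CPM in CTRL 2, close to the Eomes-negative cells at 16.9, and at 132 in BU 2, between 81.4 and 206. The genes were chosen because the outer sets differ, and these shares are a description with no reference share. The threshold divides Eomes UMIs by depth, and the part of depth in this order was not tested.

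**Figure D5:**
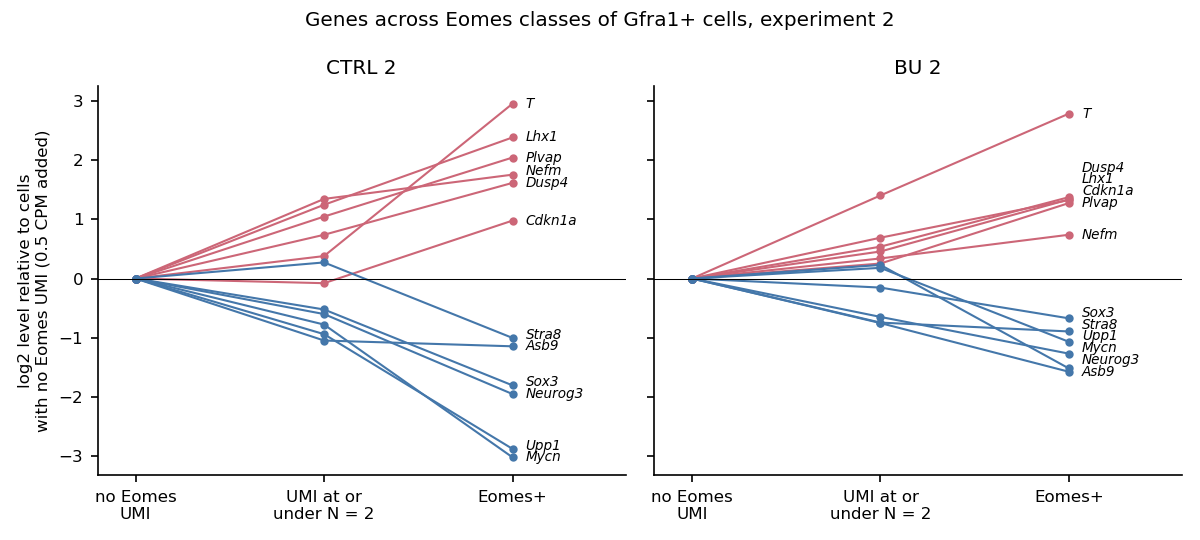
Log2 level relative to Gfra1+ cells with no Eomes UMI (y axis, somatic cells and spermatids left out of that set, 0.5 CPM added) across the 3 Eomes classes (x axis) in the libraries of experiment 2, for 6 genes called higher (red) and 6 called lower (blue). Most lines pass through an intermediate level, exceptions being Cdkn1a and Stra8 in CTRL 2 and Upp1 and Neurog3 in BU 2. The middle class was scaled to total UMIs without TMM and the outer classes with it.

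BU and CTRL were then compared within each set of cells. Without a term for the experiment, as the study compared its groups, edgeR's quasi-likelihood test called 0 of 9839 genes in Eomes+ cells, with 276 at an unadjusted p under 0.05 and 1 called by DESeq2, and 0 of 13107 in Eomes-negative cells, with 521 at an unadjusted p under 0.05 and 7 called higher and 3 lower by DESeq2. With the experiment as a replicate block, 5 genes were higher in BU (0.0508%) and 1 lower (0.0102%) in Eomes+ cells, and 42 higher (0.32%) and 71 lower (0.542%) in Eomes-negative cells. Without CTRL 2, which held 25 Eomes+ cells, the fit with no block called 283 genes higher and 62 lower in Eomes+ cells, with 1 CTRL library assumed to vary like the BU pair.

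All 5 rises concerned genes that were also higher in BU among Eomes-negative cells. Ccng1, a cyclin induced by p53, was at 19.2 and 7.07 CPM in the Eomes+ cells of CTRL 1 and CTRL 2, and at 83.4 and 135 in those of BU 1 and BU 2. The groups did not overlap, and with the block the log2 difference was 2.95 ± 0.36 (n = 2 libraries per group, edgeR adjusted p = 6.9e-05). In the Eomes-negative cells of the same libraries Ccng1 was at 32.7, 27.4, 79.5 and 78.9 CPM, with a log2 difference of 1.44. Cdkn1a rose by 1.86 in Eomes+ and 2.19 in Eomes-negative cells, S100a6, a calcium-binding protein gene, by 1.83 and 2.05, S100a11 by 1.48 and 1.48, and Cd63, a tetraspanin of endosomes, by 1.26 and 1.35. Gm12216, a predicted gene, fell by 2.40 in Eomes+ and by 1.42 in Eomes-negative cells. The edgeR adjusted p-values of these 6 genes in Eomes+ cells lay between 6.9e-05 and 0.0293. The 2 comparisons draw on the same 4 libraries.

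Among the lists, the BU against CTRL difference in Eomes+ cells under the block had a median of 0.77 for the 20 mitosis genes and 0.89 for the 15 genes raised after busulfan, of which 0 and 2 were called. The median was -0.57 for 11 progenitor genes and -0.18 for 16 SSC transcription factors, with 0 called in each of these 2 lists. Lhx1 was higher in BU by 1.63 in Eomes-negative cells (edgeR adjusted p = 0.0215 with the block) and by 0.81 in Eomes+ cells (adjusted p = 0.155). Plaur was higher in BU by 3.77 in Eomes-negative cells (edgeR adjusted p = 0.00609 with the block) and by 2.56 in Eomes+ cells (adjusted p = 0.0732). A call in one set and not in the other is not a difference between them, which was tested directly.

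The difference of the Eomes contrast between BU and CTRL, tested as an interaction with library as a block, was called for 1 gene higher in BU (0.00841%) and 4 lower (0.0336%) of 11895 over all cells, and for 17 higher (0.145%) and 31 lower (0.265%) of 11693 with other cell types left out. Over all cells these were Tnp1 (1.83), and Hist1h1a (-1.24), Hist1h2ae (-1.53), Mpzl2 (-1.38) and Olfr655 (-2.58), each with an edgeR adjusted p of 0.0478. Mpzl2, a cell adhesion gene, was at 40.6 and 90.5 CPM in the Eomes+ cells of CTRL 1 and CTRL 2 against 18.2 and 14.9 in Eomes-negative cells, and at 117 and 120 in BU 1 and BU 2 against 78.9 and 80.3. Eomes+ cells were higher in all 4 libraries, by more in CTRL than in BU. Tnp1, a transition protein of spermatids, was at 553 CPM in the Eomes-negative cells of CTRL 2 and between 38.1 and 84.6 in the other 7 sums, and with spermatids left out its difference was 0.26 (edgeR adjusted p = 0.801). Olfr655 had no UMI in experiment 1, and the histone genes Hist1h1a and Hist1h2ae have near-identical relatives. Leaving out CTRL 1 gave 21 genes higher and 50 lower, leaving out CTRL 2 gave 0 and 10, and leaving out cells with a shared barcode gave 0 and 0, and CTRL 2 contributed 25 Eomes+ cells.

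With other cell types left out, Lhx1 and Nefm had smaller Eomes differences in BU than in CTRL, by 0.86 (edgeR adjusted p = 0.00265) and 0.79 (adjusted p = 0.000199). Over all cells the same values were 0.82 (adjusted p = 0.435) and 0.79 (adjusted p = 0.151), past no threshold. By library, over all cells, the log2 ratio of Lhx1 was 1.34, 2.45, 0.86 and 1.47 for CTRL 1, CTRL 2, BU 1 and BU 2. Within each experiment it was smaller in BU, while across experiments the groups overlapped and CTRL 2, with 25 Eomes+ cells, stood apart. For Nefm the ratios were 1.02, 1.92, 0.68 and 0.87, without overlap. Ccng1 went the other way, by 1.60 (edgeR adjusted p = 0.000763, against 0.103 over all cells). Its Eomes+ cells were lower than Eomes-negative cells in both CTRL libraries and higher in both BU libraries. Ddit4, a repressor of mTORC1, changed by 1.72 (edgeR adjusted p = 0.00261, against 0.32 over all cells), with Eomes+ levels of 22.5, 4.24, 12.2 and 21.2 CPM against 48.6, 34.1, 17.7 and 14.5 without other cell types in CTRL 1, CTRL 2, BU 1 and BU 2. Lin28a, an RNA-binding protein of progenitors, changed by 1.29 (edgeR adjusted p = 0.0032, against 0.0975 over all cells), being lower in Eomes+ cells of both CTRL libraries at 31.6 and 31.1 against 70.01 and 80.6 CPM. In BU its levels were 29.5 and 22.7 against 28.3 and 22.4 CPM. The interaction fit without other cell types was not repeated with DESeq2, without shared barcodes or without 1 library. Over all cells no gene was called for the interaction with DESeq2 or without shared barcodes.

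Promoters were examined since Eomes+ cells carry a T-box factor whose family recognises the letters AGGTGTGA. The window ran from 250 bases before to 50 bases after each annotated start (RefSeq, GRCm38.p6), and the 8 letters were searched on both strands. They occurred in 419 of 32851 windows (1.28%), in 99 of 11951 windows of tested genes (0.828%), in 2 of 292 windows of genes called higher in both fits (0.685%) and in 6 of 163 windows of genes called lower in both (3.68%). By gene these were 93 of 9334 tested genes with a window (0.996%), 2 of 206 called higher (0.971%) and 5 of 119 called lower (4.20%), since Gapdhs holds the letters in 2 of its windows. The 2 printed here belong to Cdkn1a, called higher, at chr17:29093519-29093818 on the plus strand, with the letters starting 13 bases after the start, and to Sgk1, called lower, at chr10:21978422-21978721 on the plus strand, with the letters on the opposite strand 192 bases before it. Capitals mark the match.
Cdkn1a: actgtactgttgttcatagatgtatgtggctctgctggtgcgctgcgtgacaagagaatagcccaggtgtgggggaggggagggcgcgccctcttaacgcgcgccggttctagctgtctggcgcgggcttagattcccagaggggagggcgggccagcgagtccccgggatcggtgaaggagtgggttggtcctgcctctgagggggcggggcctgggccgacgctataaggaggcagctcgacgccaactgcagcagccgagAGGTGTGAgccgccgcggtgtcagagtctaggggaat
Sgk1: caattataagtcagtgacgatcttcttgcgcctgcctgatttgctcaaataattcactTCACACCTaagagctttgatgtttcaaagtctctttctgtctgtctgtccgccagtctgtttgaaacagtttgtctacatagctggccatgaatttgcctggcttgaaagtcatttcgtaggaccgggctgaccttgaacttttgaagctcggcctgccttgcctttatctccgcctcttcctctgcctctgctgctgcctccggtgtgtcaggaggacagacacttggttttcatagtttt
A match is a description of the letters and says nothing about binding. Windows were found for 206 of the 291 genes called higher and 119 of the 150 called lower in both fits, and Cdkn1a and Sgk1 were printed as genes described above whose window holds the letters.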

How the data were processed

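UMI counts were deposited per library as filtered matrices, made by the authors with Cell Ranger on mm10 per their methods, while the submitters' processing notes name GRCm39 and Seurat 3.2. Coordinates are those of a GRCm38 annotation matched by gene identifier. The labels give kit version 2 for experiment 1 and 3.1 for experiment 2, and the methods give version 2 for all. The members and the 27 gene lists (347 genes) were chosen with earlier results of these data known.

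Counts were read for 27514 genes with Python 3.11.15 and summed per library and Eomes status over all cells, doublets included. Sums were tested in R 4.3.3 by the quasi-likelihood test of edgeR 4.0.16 after filterByExpr and TMM scaling, at a Benjamini-Hochberg adjusted p under 0.05, with library as a block, and without a block for BU against CTRL. Eomes and Gfra1 were left out of the tests. The script was tested on simulated data. DESeq2 1.42.0, RLE factors, other filters, thinning to 5000 UMIs, each library left out and each experiment alone were alternatives. The fits within an experiment, those without shared barcodes and the repeats of the fit without other cell types were added after the data were seen. Leaving out somatic cells and spermatids was planned as an alternative. Doublets were marked by simulation at 0.8% per 1000 cells (81, 18, 34 and 19 cells in CTRL 1, CTRL 2, BU 1 and BU 2, of which 5, 0, 1 and 2 were Eomes+).

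Genes were named from the lists, and otherwise as the 12 largest rises and falls past the threshold with 1 sign in 4 libraries and a mean of at least 10 CPM, or the 5 largest each way for the other comparisons. For BU against CTRL these were taken from the fit with the block, as the fit without it called none. The replicate number in the labels is the experiment. Deviations from the group means of Eomes+ sums correlated at 0.586 within experiments, so blocked values are given.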

Additional observations from a re-analysis of the deposited data

Results flagged for a closer look

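The difference between Eomes+ and Eomes-negative cells differed between BU and CTRL for 5 genes in edgeR's test of the interaction over all cells. It was -1.24 on the log2 scale for Hist1h1a, -1.53 for Hist1h2ae, -1.38 for Mpzl2, -2.58 for Olfr655 and 1.83 for Tnp1 (BU minus CTRL). Each had a Benjamini-Hochberg adjusted p of 0.0478 with 2 libraries per group, and none was called when cells with a shared barcode were left out.

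Eomes was also over the threshold in cells that the comparisons did not use, passing cells with no Gfra1 UMI. These were 137 of 2503 such cells in CTRL 1 (5.47%), 2 of 724 in CTRL 2 (0.276%), 77 of 1092 in BU 1 (7.05%) and 10 of 478 in BU 2 (2.09%). Any Eomes UMI was found in 5.63%, 3.18%, 7.33% and 9.21% of them. Spermatids of CTRL 1 and BU 1, 34 and 7 cells with no Eomes UMI, allow shares of up to 8.82% and 42.9%, so they give no background below these values.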

How the results depend on the processing

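The 353 higher and 364 lower genes over all cells became 164 and 140 with DESeq2, 37 and 39 with status from thinned cells, 106 and 93 from sums of thinned cells, 189 and 129 from deep cells only, 183 and 182 in experiment 1 alone, 199 and 208 without shared barcodes, and 0 and 0 with no replicate block. The lower count was also 811 with no filter on low counts, 630 in experiment 2 alone and 217 without other cell types. Leaving out 1 library gave 144 to 286 higher and 156 to 348 lower. Without other cell types, 337 and 217 became 75 and 43 in experiment 1, 78 and 38 in experiment 2, 155 and 71 with DESeq2, 0 and 0 with no replicate block, and 154 to 328 and 75 to 200 without 1 library. The interaction, 1 higher and 4 lower, gave 0 and 0 with DESeq2, RLE factors, doublets left out, a mitochondrial limit of 10% or either barcode setting, 7 and 16 with no filter, 17 and 31 without other cell types, and 0 to 21 and 1 to 50 without 1 library. BU against CTRL, 0 and 0 in Eomes+ cells, gave 5 and 1 with the replicate block, 1 higher with DESeq2, 7 and 2 with no filter, and 1 to 283 and 0 to 62 without 1 library, the highest both without CTRL 2. In Eomes-negative cells, 0 and 0 became 42 and 71 with the block, 7 and 3 with DESeq2, 3 and 2 with no filter, and 0 to 3 and 0 to 25 without 1 library. The share difference of 6.11 points was 15.7 with any Eomes UMI and 2.63 to 9.58 without 1 library. The causes were not tested. Of 652 repeats for single named genes over all cells, 589 stayed past the threshold and 63 did not, 38 of these with no replicate block. Repeats in which a gene could not be tested are not in these counts. With status from thinned cells 5 stayed and 8 did not, and with sums of thinned cells 17 stayed and 4 did not, the other named genes being untested there. Without other cell types 220 of 264 stayed. None reversed.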
